A study of Mus musculus with 19 samples.

Results

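Gene expression in the hippocampus of APP-PS1 mice fed ibuprofen chow was compared with that of wild-type littermates fed the same chow. The comparison used every array whose label gives the ibuprofen diet, 10 of the 19 arrays in the series: 5 from APP-PS1 mice and 5 from wild-type mice. The APP-PS1 mice carried the APPSwe-PS1deltaE9 transgenes, and all mice were of the C57BL/6J strain. Both groups ate chow with 375 ppm ibuprofen between 3 and 6 months of age and were sampled at 6 months. Ibuprofen is thus shared by the groups compared, and genotype is the only labelled difference between them. The remaining 9 arrays came from 5 APP-PS1 and 4 wild-type mice of the same age on the same chow without ibuprofen, and they served for the test of whether the genotype difference depended on the diet. The labels name neither the promoter of the transgenes nor the sex of the mice, and they do not say whether an array is 1 mouse, so the p-values measure the spread between arrays. Total RNA of the hippocampus was hybridised to Affymetrix whole-transcript arrays, which read RNA level as fluorescence. The values are log2 levels, so a difference of 1 is a doubling, and 1 probe set (the set of probes that read 1 transcript) stood for each of 19938 genes.

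The amyloid precursor protein APP is cut by secretases into the amyloid-β peptide, and mice that carry these transgenes make more of it and build up amyloid plaques in the hippocampus and cortex. In the widely used line of this name both transgenes are driven by the promoter of the mouse prion gene. Plaques are surrounded by microglia and astrocytes with altered gene expression, and ibuprofen is an inhibitor of cyclooxygenases, the enzymes of prostaglandin synthesis. The dentate gyrus, one of the subfields of the hippocampus, is built of granule cells marked by the transcription factor Prox1, and is one of the places where neurons are still born in adult mice.

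In APP-PS1 mice on ibuprofen, 4 genes were higher and 50 were lower than in wild-type mice on ibuprofen at a Benjamini-Hochberg adjusted p under 0.05 in limma. These 54 genes were 0.271% of the 19938 tested, with 0.0201% higher and 0.251% lower. The 4 that rose were Prnp, App, Cst7 and Penk. The 50 that fell included markers of dentate granule cells (Dsp, Tdo2, Prox1 and Lct). The median difference over all genes was -0.05, and 37.8% of genes lay above 0. At an unadjusted p under 0.05, 1247 genes (6.25%) were higher and 3629 (18.2%) were lower. When the arrays were quantile-normalised again, 9 genes passed as higher and 41 as lower. At an unadjusted p under 0.05, 1719 genes were then higher and 2179 lower, and the median difference over all genes was -0.0073. Without wild-type replicate 5 on ibuprofen these unadjusted counts were 985 and 1973, and without wild-type replicate 4 they were 2156 and 5028. The excess of lower genes thus changed in size with scaling and with single arrays. The shares of 6.25% and 18.2% belong to the values as deposited with every array kept. The ranges of the 2 groups did not overlap for 46 genes that were higher (0.231%) and 411 that were lower (2.06%).

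The values of the 19 arrays ran between 3.46 and 14.80, and array medians between 8.06 and 8.14. Median correlations of an array with the others were between 0.994 and 0.997 for 17 arrays, and were 0.987 for replicate 5 and 0.993 for replicate 1 of wild-type mice on ibuprofen. The mean of 19 markers of CA pyramidal cells was 10.51 to 10.62 in APP-PS1 mice on ibuprofen and 10.55 to 10.77 in wild-type mice on ibuprofen. No other tissue was there to compare it with. Markers of the choroid plexus, the tissue that secretes cerebrospinal fluid and lies beside the hippocampus, varied from array to array. Their mean was 9.90, 7.96, 8.90, 8.01 and 9.93 in replicates 1 to 5 of APP-PS1 mice on ibuprofen, against 8.01, 7.79, 7.60, 7.80 and 10.15 in wild-type mice on ibuprofen. The mean of the Y-linked genes Kdm5d, Uty and Eif2s3y was 9.39 to 9.86 in replicate 1 of APP-PS1 mice and replicates 1 and 2 of wild-type mice on ibuprofen, and 10.18 to 10.62 on the other 16 arrays, whereas Xist, the RNA of the inactive X chromosome, was 5.33 to 5.82 on all 19. The part of these differences in the results was not tested beyond the fits that leave arrays out or add these means as covariates.

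Prnp, which encodes the prion protein, rose most firmly. Its probe set 10476314 read 13.44, 13.36, 13.37, 13.42 and 13.43 in replicates 1 to 5 of APP-PS1 mice on ibuprofen, against 12.79, 12.67, 12.83, 12.70 and 12.70 in wild-type mice on ibuprofen. None of the 5 APP-PS1 arrays came down to the wild-type range, and the arrays of each group lay close together. The difference was 0.67 ± 0.03 (SE), which is 1.59-fold, with an adjusted p of 2.54e-11. On control chow the difference between the genotypes was also 0.67, and the interaction with diet was -0.00 ± 0.05 (unadjusted p = 0.978). The sequence at the start of Prnp is shown because the prion promoter drives the transgenes of the widely used line. It runs from 250 bases before to 50 bases after the annotated start (RefSeq, GRCm38.p6, chr2:131909678-131909977, plus strand), and capitals mark the 3 matches to the GC box GGGCGG or its complement CCGCCC, the core of a binding site of Sp1-type factors. Of 27025 promoters of this length in RefSeq, 35.9% hold at least 1 such match.
Prnp promoter: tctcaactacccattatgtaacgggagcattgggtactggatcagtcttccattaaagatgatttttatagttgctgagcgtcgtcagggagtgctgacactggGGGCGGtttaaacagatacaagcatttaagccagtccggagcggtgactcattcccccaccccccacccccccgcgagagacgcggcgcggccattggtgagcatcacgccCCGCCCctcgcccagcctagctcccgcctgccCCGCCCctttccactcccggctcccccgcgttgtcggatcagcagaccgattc

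App, the mouse gene of the amyloid precursor protein, read 13.60, 13.58, 13.55, 13.57 and 13.64 in APP-PS1 mice on ibuprofen, against 13.26, 13.16, 13.25, 13.17 and 13.40 in wild-type mice on ibuprofen. The groups did not overlap, and the highest wild-type value was that of replicate 5. The rise was 0.34 ± 0.03 (1.27-fold, adjusted p = 1.73e-05), against 0.40 on control chow. Whether the added signal of App and Prnp came from the mouse genes or from transgene RNA was not tested.

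Cst7, which encodes cystatin F, an inhibitor of lysosomal cysteine proteases made by microglia around plaques, had the largest difference of the 4 genes that rose. It read 8.27, 7.80, 7.84, 7.69 and 8.13 in APP-PS1 mice on ibuprofen, against 7.01, 7.05, 6.99, 7.27 and 7.06 in wild-type mice on ibuprofen. The groups did not overlap, and 4 of the 5 wild-type arrays were within 6.99 and 7.06. The difference was 0.87 ± 0.11 (1.83-fold, adjusted p = 0.00101). On control chow it was 0.66 with an adjusted p of 0.0722, and the interaction of 0.21 had an unadjusted p of 0.229.

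Penk, the precursor of the enkephalin opioid peptides, differed by 0.02 on control chow, where Prnp, App and Cst7 differed by 0.67, 0.40 and 0.66. Its levels were 12.13, 11.77, 12.57, 11.78 and 12.54 in APP-PS1 mice on ibuprofen, against 11.69, 11.16, 11.35, 11.29 and 11.40 in wild-type mice on ibuprofen. The lowest APP-PS1 array stood just above the highest wild-type array, and replicates 3 and 5 of the APP-PS1 mice were the high ones. The rise was 0.78 ± 0.13 (1.72-fold, adjusted p = 0.0128), and the interaction with diet was 0.76 (unadjusted p = 0.000563, adjusted p = 0.208). Penk is also a marker of the striatum, a neighbouring brain region. In the list of 10 striatal markers measured, which includes Penk itself, 5 lay above 0 and 5 below, with a median of -0.00. The list mean, Penk included, was 9.31 to 9.52 in APP-PS1 mice on ibuprofen and 9.22 to 9.50 in wild-type mice on ibuprofen. Drd1, the D1 dopamine receptor, differed by 0.45 (adjusted p = 0.0874), Ppp1r1b, the striatal phosphoprotein DARPP-32, by 0.18 and Drd2, the D2 dopamine receptor, by 0.08. Among the 5 below 0, Rarb differed by -0.30 (adjusted p = 0.102) and Pde10a by -0.23 (adjusted p = 0.131). Whether striatal tissue had a part in the Penk values was not tested further.

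**Figure D1:**
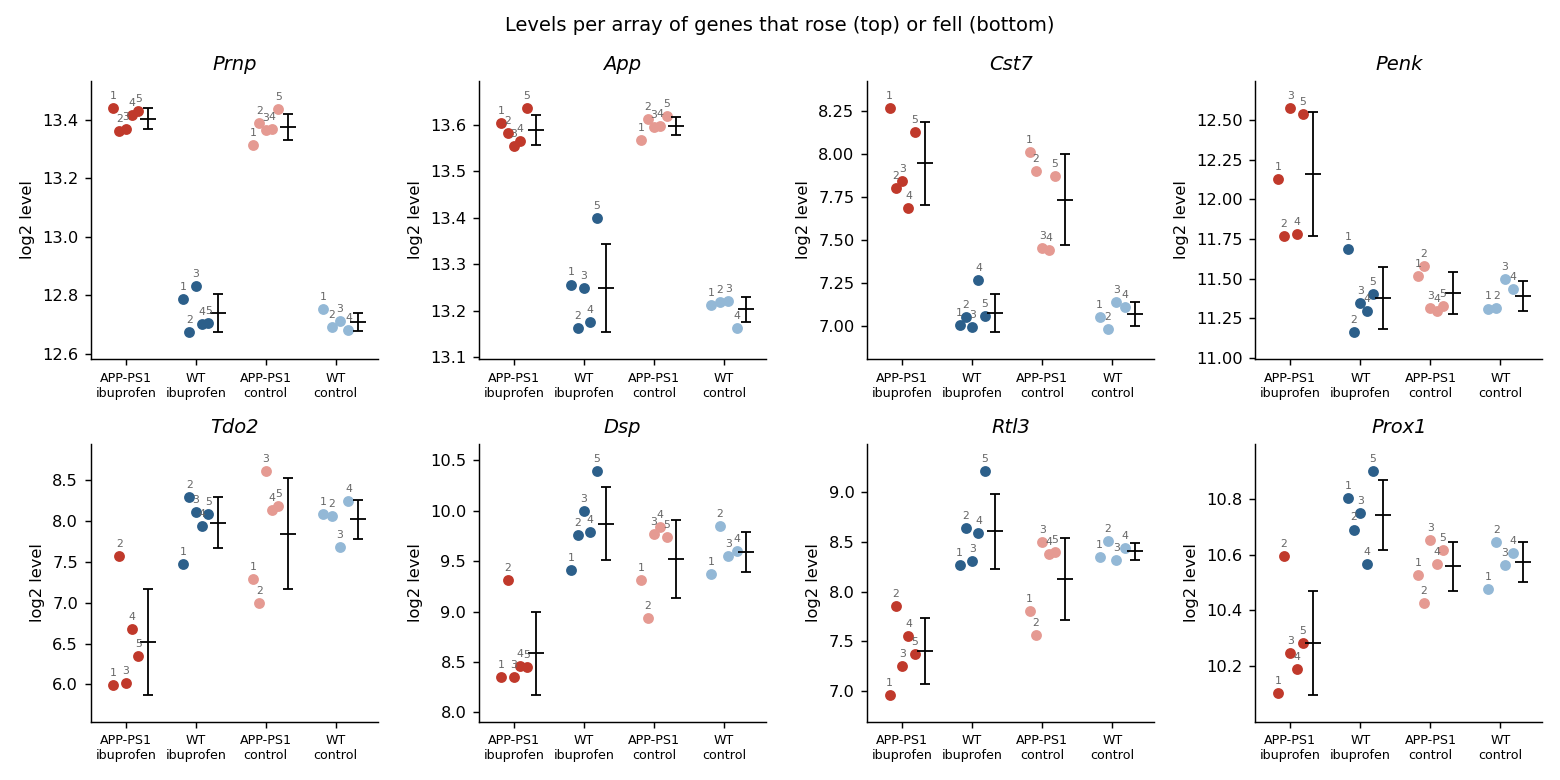
Log2 level of 8 genes on each of the 19 arrays (points, numbered by replicate) with the mean and SD of each group (bars), by genotype and chow. In Prnp, App, Cst7 and Penk the APP-PS1 arrays on ibuprofen lie above all wild-type arrays on ibuprofen, and in Dsp and Rtl3 they lie below all of them, while Tdo2 and Prox1 overlap through APP-PS1 replicate 2.

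No other gene passed as higher. The next by p were Ppl, the junction protein periplakin, at 0.34 (adjusted p = 0.0502) and Dpep1, a membrane dipeptidase, at 0.50 (adjusted p = 0.052). Csf3r, the receptor for granulocyte colony-stimulating factor, was at 0.37, Gpr50, a relative of the melatonin receptors, at 0.35, and Tmc6, Pla2g2d, a secreted phospholipase, Olfml3, a microglial glycoprotein, and the collagen Col3a1 were each at 0.34. Of these 8, Ppl alone had groups that did not overlap. It read 8.17, 8.13, 8.39, 8.30 and 8.40 in APP-PS1 mice on ibuprofen and 7.97, 7.88, 7.85, 8.09 and 7.90 in wild-type mice on ibuprofen.

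The genes that fell were led by 3 with differences beyond -1. Dsp encodes desmoplakin, which anchors intermediate filaments at desmosomes and in the hippocampus is a marker of dentate granule cells. Its probe set 10404649 read 8.35, 9.31, 8.35, 8.46 and 8.45 in APP-PS1 mice on ibuprofen, against 9.41, 9.75, 9.99, 9.79 and 10.40 in wild-type mice on ibuprofen. The groups did not overlap, though replicate 2 of the APP-PS1 mice lay close to the lowest wild-type array and well above its own group. The fall was -1.29 ± 0.19 (2.44-fold lower, adjusted p = 0.00545).

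Tdo2, tryptophan 2,3-dioxygenase, opens the kynurenine pathway of tryptophan breakdown and is also a granule cell marker in this tissue. It read 6.00, 7.57, 6.02, 6.68 and 6.34 in APP-PS1 mice on ibuprofen, against 7.47, 8.30, 8.12, 7.94 and 8.08 in wild-type mice on ibuprofen. APP-PS1 replicate 2 stood above wild-type replicate 1, so the groups overlapped, while the other 4 APP-PS1 arrays were all lower than any wild-type array. The fall was -1.46 ± 0.28 (2.75-fold lower, adjusted p = 0.0189). Rtl3, a gene derived from a retrotransposon, read 6.96, 7.85, 7.25, 7.55 and 7.37 in APP-PS1 mice on ibuprofen, against 8.27, 8.64, 8.31, 8.59 and 9.22 in wild-type mice on ibuprofen. Its groups did not overlap, and the fall was -1.21 ± 0.19 (adjusted p = 0.0063).

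Prox1, the homeodomain factor that specifies and maintains granule cell identity, fell by 0.46 (SE 0.08, adjusted p = 0.0128). Its levels were 10.10, 10.59, 10.25, 10.19 and 10.28 in APP-PS1 mice on ibuprofen and 10.80, 10.69, 10.75, 10.57 and 10.90 in wild-type mice on ibuprofen. Again the overlap was that of APP-PS1 replicate 2, here with wild-type replicate 4. Lct, lactase, known in brain atlases as a granule cell transcript, read 9.45, 9.90, 8.86, 9.51 and 9.52 in APP-PS1 mice on ibuprofen and 10.16, 9.95, 9.94, 10.001 and 10.49 in wild-type mice on ibuprofen. It fell by 0.66 (SE 0.13, adjusted p = 0.0315), and its groups did not overlap.

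Of the 17 markers of dentate granule cells, 14 lay below 0 and 3 above, with a median of -0.28, and these 4 passed the test. Over all genes the median was -0.05, and without wild-type replicate 5 on ibuprofen that of the list was -0.15. At an unadjusted p under 0.05, 10 of the 17 were lower, where 18.2% of all genes were, and Pla2g2d was higher at 0.34. This list and the other lists were chosen with earlier results of these data known, so their counts are only a description. The others below 0 included Npnt, an extracellular matrix protein, at -0.46 and Calb1, the calcium buffer calbindin, at -0.29, neither of which passed. Calb1 read 11.53, 11.71, 11.44, 11.47 and 11.30 in APP-PS1 mice on ibuprofen and 11.49, 11.88, 11.89, 11.94 and 11.72 in wild-type mice on ibuprofen. C1ql2, a synaptic organiser of the granule cell axons, lay at 0.08. The list mean was 9.75 ± 0.16 in APP-PS1 mice on ibuprofen and 10.08 ± 0.11 in wild-type mice on ibuprofen (SD, n = 5 each), while on control chow it was 9.95 ± 0.10 in 5 APP-PS1 arrays and 9.96 ± 0.06 in 4 wild-type arrays. In whole tissue, fewer cells of a type and less RNA per cell cannot be told apart.

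The start of Prox1 is shown as the example for the dentate markers (RefSeq, GRCm38.p6, chr1:190170778-190171077, minus strand, the first of 2 listed starts). Capitals mark its match to CAGATG, an E-box of the kind bound by NeuroD factors, searched on both strands as CAGATG and CATCTG. This E-box was in 17.2% of the 27025 promoters, in 7 of the 42 genes that fell and have a promoter in the table, and in none of the windows of Dsp, Tdo2 and Lct. The GC box printed above for Prnp was in 24 of the 42. No test was made of these counts, and a match is only a run of letters.
Prox1 promoter: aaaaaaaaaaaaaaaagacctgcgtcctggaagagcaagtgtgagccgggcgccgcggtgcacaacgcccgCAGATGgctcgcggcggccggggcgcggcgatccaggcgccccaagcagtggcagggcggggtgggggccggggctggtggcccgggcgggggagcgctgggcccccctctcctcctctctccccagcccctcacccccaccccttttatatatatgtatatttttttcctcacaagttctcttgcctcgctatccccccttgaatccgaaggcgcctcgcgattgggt

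Among secreted factors and receptors, 7 genes fell, by between -0.67 and -0.38. The groupings by role in this and the next 3 paragraphs were made after the values were seen. The share of each role among the 19938 genes was not counted, so the counts by role are only a description. Frzb, a secreted antagonist of Wnt ligands, read 9.25, 9.53, 8.45, 9.26 and 9.32 in APP-PS1 mice on ibuprofen, against 9.86, 9.87, 9.80, 9.71 and 9.94 in wild-type mice on ibuprofen, a difference of -0.67 ± 0.13 (adjusted p = 0.0207). APP-PS1 replicate 3 was the low array. Il16, which encodes the precursor of interleukin 16 and a neuronal scaffold protein, fell by 0.51 (adjusted p = 0.0178), with 9.11 to 9.89 in APP-PS1 mice and 9.95 to 10.17 in wild-type mice on ibuprofen. The tyrosine kinase receptor Flt3 and the activin receptor Acvr2a fell by 0.44 and 0.41. Il1rap, the accessory chain of the interleukin 1 receptor, and Ccbe1, an extracellular factor of lymphatic vessel growth, both fell by 0.48. Mertk, a receptor by which microglia and astrocytes take up dying cells and synapses, read 10.19, 10.28, 10.21, 9.95 and 9.94 in APP-PS1 mice on ibuprofen and 10.51, 10.42, 10.42, 10.51 and 10.59 in wild-type mice on ibuprofen. Its difference was -0.38 ± 0.07 (adjusted p = 0.0195).

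Transcription regulators that fell, beside Prox1, were Mkx, Prdm8, Bcl6 and Rfx3. Mkx, a homeobox factor best known from tendon, differed by -0.58 ± 0.10 (adjusted p = 0.0128), with 8.35 to 8.86 in APP-PS1 mice and 9.02 to 9.49 in wild-type mice on ibuprofen. Prdm8, a repressor that acts in cortical and retinal neurons, differed by -0.47, Bcl6, a repressor of Notch targets in new neurons, by -0.38, and Rfx3, a regulator of cilia genes, by -0.32.

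Among the 50 genes were Kcng3, Syt10, Jph1 and Kcnq3. Kcng3, a modulatory potassium channel subunit, read 9.11, 9.66, 9.30, 9.08 and 8.90 in APP-PS1 mice on ibuprofen, against 9.59, 9.72, 9.94, 9.70 and 10.11 in wild-type mice on ibuprofen, with a difference of -0.60 ± 0.12 (adjusted p = 0.02). Syt10, a calcium sensor of vesicle release, read 9.92, 9.86, 9.30, 9.34 and 9.52 in APP-PS1 mice and 10.14, 10.11, 10.06, 10.08 and 10.53 in wild-type mice on ibuprofen, with a difference of -0.59 ± 0.11 (adjusted p = 0.0154). Kcng3 overlapped through APP-PS1 replicate 2, and Syt10 did not overlap. Jph1, which ties the endoplasmic reticulum to the plasma membrane, differed by -0.43 and Kcnq3, a subunit of the M-type potassium channel, by -0.29. Adhesion molecules were 4 of the 50. The giant cadherin Fat4 was at -0.62 ± 0.11 (adjusted p = 0.0128). The synapse organiser Lrrtm4 was at -0.39, the cadherin Cdh8 at -0.28 and the leucine-rich repeat protein Lrrn1 at -0.24. Fat4 was 9.37 to 9.98 in APP-PS1 mice and 10.01 to 10.56 in wild-type mice on ibuprofen.

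Second messenger enzymes and binding proteins were 6 of the 50. Dgkh, a diacylglycerol kinase, read 10.41, 10.78, 10.18, 10.56 and 10.44 in APP-PS1 mice on ibuprofen, against 10.90, 10.89, 10.997, 10.85 and 11.29 in wild-type mice on ibuprofen, with a difference of -0.51 ± 0.09 (adjusted p = 0.0128). Adcy1, the calcium-stimulated adenylyl cyclase of synaptic plasticity, differed by -0.44, and Camkk2, the kinase upstream of AMP-activated kinase, by -0.43. Pip5k1b, which makes a phosphoinositide, differed by -0.36, the inositol phosphate binding protein Plcl1 by -0.32, and the inositol hexakisphosphate kinase Ip6k2 by -0.29. Regulators of small GTPases and actin were 4 more: Ralgapa2 at -0.47, Carmil1 at -0.35, Iqgap2 at -0.26 and Cap2 at -0.20, the smallest of the 50 differences. Alox12b, a lipoxygenase of the skin barrier, was among the enzymes and fell by 0.56 (adjusted p = 0.024), with 8.82 to 9.39 in APP-PS1 mice and 9.43 to 9.96 in wild-type mice on ibuprofen. B3galt5, a galactosyltransferase of glycan chains, fell by 0.43.

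One miRNA gene, Mir488, was among the 50. Its mature arms are shown because the seed, bases 2 to 8 in capitals, sets which messenger RNAs a miRNA pairs with. The sequences and positions are those of RefSeq on GRCm38.p6, chr1:158505651-158505671 and chr1:158505689-158505709, plus strand, and the 2 arms have different seeds.
mmu-miR-488-5p: cCCAGAUAauagcacucucaa
mmu-miR-488-3p: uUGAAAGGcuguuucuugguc
The Mir488 probe set read 4.74, 4.78, 4.67, 4.71 and 4.72 in APP-PS1 mice on ibuprofen, against 4.83, 5.10, 5.26, 4.96 and 5.43 in wild-type mice on ibuprofen. The difference was -0.39 ± 0.08 (adjusted p = 0.0334), at levels near the low end of the array scale. The gene lies within Astn1, a neuronal membrane protein gene, which read 12.07 on average in APP-PS1 mice and 12.23 in wild-type mice on ibuprofen, a difference of -0.16 ± 0.05 that did not pass (adjusted p = 0.126) although its groups did not overlap. The probe set reads the gene and not a mature arm, and whether it also reads unspliced Astn1 RNA was not tested.

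**Figure D2:**
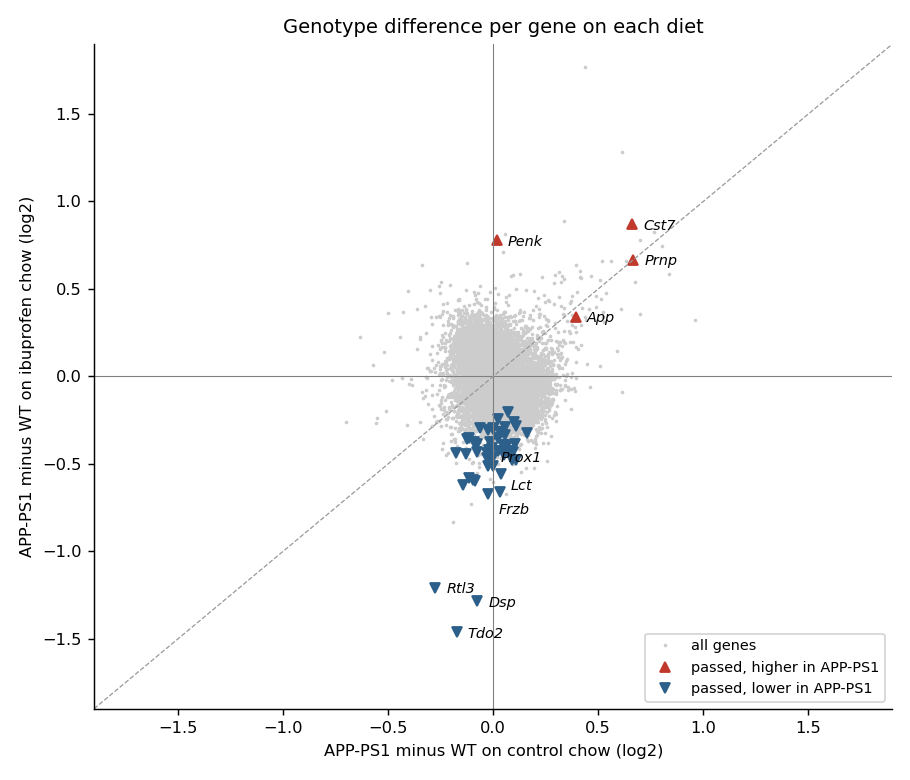
Difference between APP-PS1 and wild-type mice for each of 19938 genes (points) on ibuprofen chow (vertical, log2) against control chow (horizontal, log2), with genes past adjusted p 0.05 on ibuprofen chow as triangles and the line of equal differences dashed. Prnp, App and Cst7 lie near that line, whereas Penk is at 0.02 and the 50 genes that fell are between -0.28 and 0.16 on the horizontal axis.

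On control chow 57.9% of all genes lay above 0, and at an unadjusted p under 0.05 4.8% were higher and 1.07% lower in APP-PS1 mice than in wild-type mice. None of the 50 genes that fell on ibuprofen chow passed the test there. Their median difference was -0.43 on ibuprofen chow, and on control chow it was -0.00, with a range of -0.28 to 0.16 and 26 of the 50 below 0. On ibuprofen the APP-PS1 mean was below both control chow means in 49 of the 50 and the wild-type mean was above both in 48, with 47 genes showing both. For Dsp the control chow means were 9.52 in APP-PS1 mice and 9.59 in wild-type mice, between the 8.58 of APP-PS1 mice and the 9.87 of wild-type mice on ibuprofen. The genes were chosen here by their difference on ibuprofen chow, so this placing is a description.

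The test of the difference itself, genotype on ibuprofen chow minus genotype on control chow, passed for 0 of the 19938 genes in limma, with a smallest adjusted p of 0.208. At an unadjusted p under 0.05 there were 4087 genes (20.5%), 897 with a positive (4.5%) and 3190 with a negative interaction (16%). With limma's array weights 174 genes passed, and 13 passed without replicate 2 of APP-PS1 mice on ibuprofen. The 50 genes that fell all had an unadjusted interaction p under 0.05, at -1.29 to -0.23, but they share the ibuprofen arrays with that test. The smallest unadjusted p values were those of Iqgap2 at -0.36 (1.94e-05), Cdh8 at -0.39 (2.65e-05), Kctd4 at -0.47 (5.45e-05), Cap2 at -0.27 (5.50e-05), Plcl1 at -0.49 (6.61e-05) and Gjc3, a gap junction protein of oligodendrocytes, at -0.46 (8.82e-05). Kctd4 differed by -0.29 on ibuprofen chow and 0.19 on control chow, and Gjc3 by -0.24 and 0.22.

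Genes of microglia around plaques lay mostly above 0 on ibuprofen chow. Of 35 measured, 27 were above 0 and 8 below, with a median of 0.13, and Cst7 was the only one to pass. The median was 0.09 without APP-PS1 replicate 5 on ibuprofen. At an unadjusted p under 0.05, 14 were higher and 1 was lower, where 6.25% and 18.2% of all genes were. On control chow 28 of the same 35 lay above 0, with a median of 0.10. The next by p were the chemokine Ccl6 at 0.29, the pattern recognition receptor Clec7a at 0.27 and the lysozyme Lyz2 at 0.59, with adjusted p of 0.0984, 0.101 and 0.111. The signalling pair Trem2 and Tyrobp lay at 0.15 and 0.24, with Trem2 at 9.43 to 9.67 in APP-PS1 mice and 9.23 to 9.60 in wild-type mice on ibuprofen. Apoe, the lipid carrier raised in such cells in other models, was at -0.04. The list mean was 9.77 to 10.02 in APP-PS1 mice and 9.58 to 9.78 in wild-type mice on ibuprofen. Of 15 genes of homeostatic microglia, 10 lay above 0 with a median of 0.03. Mertk fell and none rose, and P2ry12, Tmem119 and Cx3cr1, the defining genes of the resting state, lay at 0.02, 0.04 and -0.03.

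None of the 21 astrocyte genes passed. In all, 16 lay above 0 with a median of 0.20, and 7 were higher at an unadjusted p under 0.05, where 6.25% of all genes were. The median was 0.10 without APP-PS1 replicate 5 on ibuprofen. Of the same 21 genes, 19 lay above 0 on control chow, with a median of 0.16. Gfap, the intermediate filament of astrocytes, read 11.87, 11.73, 12.39, 11.82 and 12.70 in APP-PS1 mice on ibuprofen, against 11.77, 11.50, 11.41, 11.47 and 11.54 in wild-type mice on ibuprofen. Replicates 3 and 5 of the APP-PS1 mice were high and the others close to the wild-type range, and the difference of 0.56 ± 0.16 did not pass (adjusted p = 0.101). Serpina3n, a secreted protease inhibitor of reactive astrocytes, was at 0.44 and the filament protein Vim at 0.36.

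All 12 antigen presentation genes lay above 0 on ibuprofen chow, with a median of 0.23, and 8 of 12 did on control chow, with a median of 0.06. None passed. B2m, the light chain of class I molecules, read 12.36, 12.20, 12.47, 12.44 and 12.67 in APP-PS1 mice on ibuprofen, against 11.88, 12.14, 12.09, 12.24 and 10.24 in wild-type mice on ibuprofen. Wild-type replicate 5 lay far below its group, and the difference of 0.71 ± 0.25 did not pass (adjusted p = 0.145). Cd74, the invariant chain of class II molecules, was at 0.47. Of 21 type I interferon response genes 17 lay above 0, with a median of 0.16, led in size by the antiviral membrane protein Ifitm3 at 0.59. That median was 0.05 without APP-PS1 replicate 5 on ibuprofen, 0.06 with the choroid plexus mean as a covariate and 0.36 with array weights. The same list had 18 of 21 genes above 0 on control chow, with a median of 0.17. Of 13 complement and Fc receptor genes 10 lay above 0, with a median of 0.12, and the complement component C4b was at 0.35. Of 26 chemokines and cytokines 19 lay above 0, with a median of 0.08. Without APP-PS1 replicate 5 on ibuprofen the complement and chemokine medians were 0.06 and 0.05, and without wild-type replicate 1 on ibuprofen they were 0.19 and 0.12. Without APP-PS1 replicate 4 on ibuprofen the complement median was 0.18. All 13 complement and Fc receptor genes lay above 0 on control chow, with a median of 0.14. Chemokines and cytokines had 14 of 26 above 0 there, with a median of 0.01. Ccl3, a chemokine of activated microglia, read 8.57, 8.17, 8.17, 8.12 and 8.50 in APP-PS1 mice on ibuprofen and 8.34, 7.58, 7.21, 7.49 and 7.98 in wild-type mice on ibuprofen, and its difference of 0.58 did not pass (adjusted p = 0.0912). It was 0.84 on control chow.

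**Figure D3:**
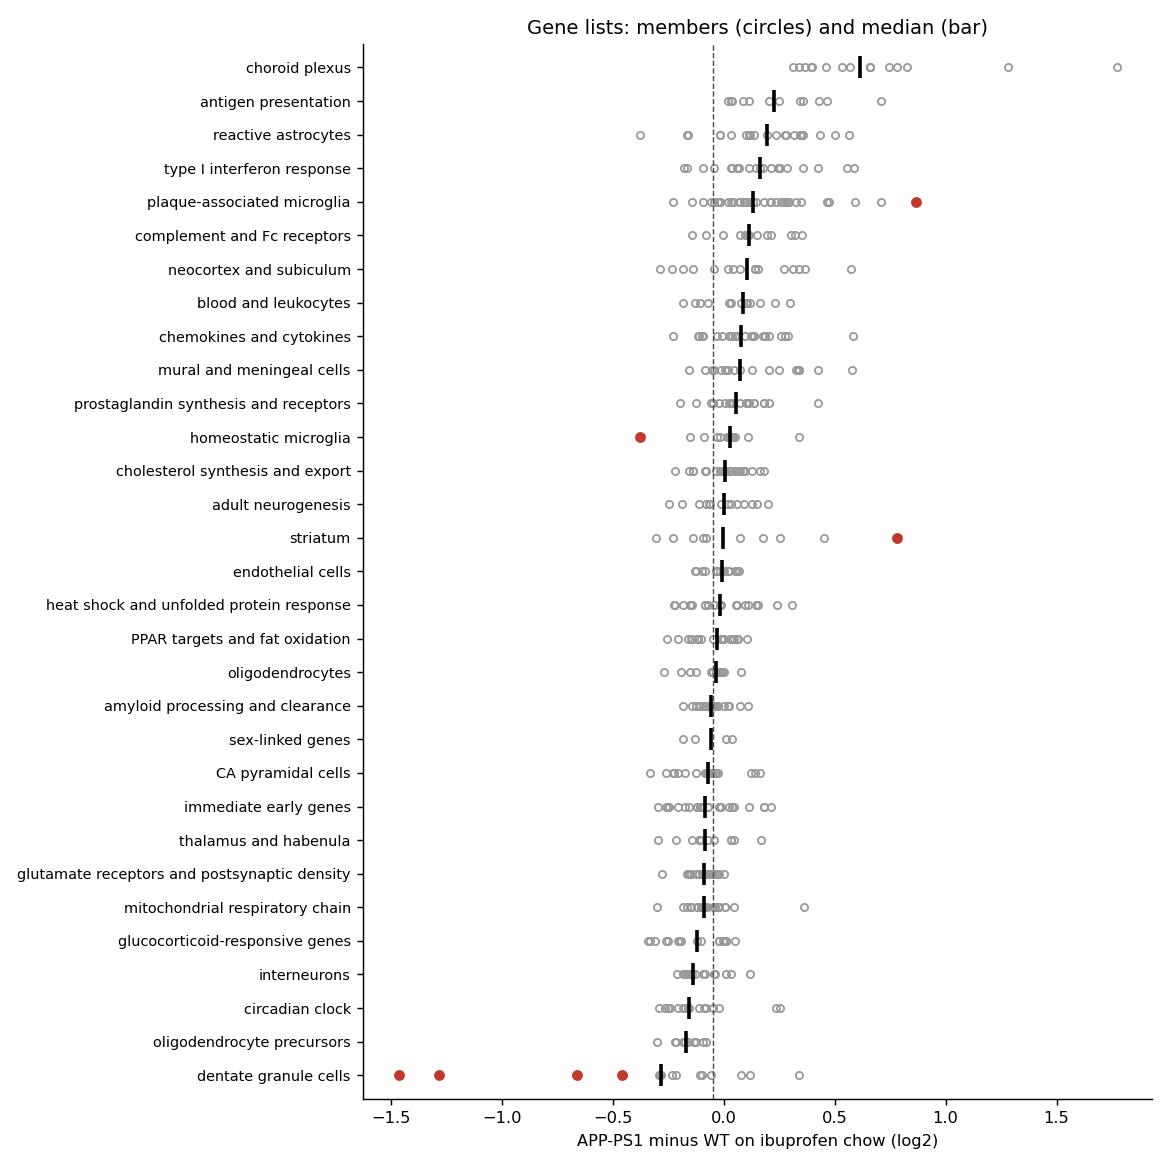
Difference between APP-PS1 and wild-type mice on ibuprofen chow (horizontal, log2) for the members of 31 gene lists (circles, filled where adjusted p was under 0.05), with the median of each list as a bar and the median of all genes, -0.05, as a dashed line. Dentate granule cell markers lie lowest with a median of -0.28, and choroid plexus markers highest with 0.61. The lists were chosen with earlier results of these data known.

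Markers of the choroid plexus lay on the same side as these immune lists: all 16 measured lay above 0, with a median of 0.61 and differences of 0.31 to 1.77, and none passed. The list mean was 7.96 to 9.93 in APP-PS1 mice and 7.60 to 10.15 in wild-type mice on ibuprofen, so the ranges overlapped widely. Ttr, transthyretin, its defining secreted protein, read 14.17, 11.70, 13.77, 11.03 and 14.05 in APP-PS1 mice on ibuprofen and 12.03, 11.25, 10.56, 10.75 and 13.72 in wild-type mice on ibuprofen, and was well above the low end of the scale on every array. On control chow the median was 0.52, also with all 16 above 0. With the list mean as a covariate in limma, 63 genes passed in place of 54, among them 50 of the 54. The median of the list was 0.40 without APP-PS1 replicate 1 or 5 on ibuprofen, 1.09 without wild-type replicate 5, and 0.03 without the 3 arrays low in Y-linked genes.

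Several neuronal and metabolic lists lay below 0, and none of their members passed. Glutamate receptor and postsynaptic density genes had 20 of 21 members below 0 with a median of -0.09, among them the metabotropic receptor Grm5 and the NMDA receptor subunit Grin2a, both at -0.16, and the scaffold Shank2 at -0.28. The list mean was 11.56 to 11.64 in APP-PS1 mice and 11.65 to 11.72 in wild-type mice on ibuprofen, with no overlap. Interneuron genes had 13 of 16 below 0 with a median of -0.14, with the peptides Cck at -0.16 (adjusted p = 0.052) and Sst at -0.21 and the synthetic enzymes Gad1 and Gad2 at -0.04 and 0.01. CA pyramidal cell genes had 16 of 19 below 0, with a median of -0.07. These counts stand beside 37.8% of all genes above 0. Genes of the respiratory chain had 22 of 26 below 0, with a median of -0.09. Over all genes the median level in APP-PS1 mice on ibuprofen was 8.64. It was 11.78, 10.52 and 11.59 for the glutamate, CA pyramidal and respiratory chain lists. Without the genes under the 0.25 quantile of mean level, the median difference of the genes left was -0.07. The median differences of the glutamate, CA pyramidal and respiratory chain lists lay close to that value. The interneuron list, with a median level of 10.69, had a median difference of -0.14, further below 0. Whether any of these lists fell beyond -0.07 was not tested. Without wild-type replicate 5 on ibuprofen the medians of the interneuron and respiratory chain lists were -0.08 and -0.05.

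Oligodendrocyte precursors were the only list with every member below 0: the 10 lay between -0.30 and -0.08, with a median of -0.17. Vcan, a matrix proteoglycan, was at -0.30, the lineage factor Olig2 at -0.21 and the growth factor receptor Pdgfra at -0.16. On control chow 8 of the 10 lay above 0. The median moved to -0.11 without wild-type replicate 5 on ibuprofen. It was -0.03 without wild-type ibuprofen replicates 1 and 5 and APP-PS1 control replicate 1. The last of these did not stand apart in median correlation: it was at 0.9943, and APP-PS1 ibuprofen replicate 4, which was kept, at 0.9942. Mature oligodendrocyte genes had a median of -0.03 on ibuprofen chow, with the myelin genes Mbp and Mog at -0.05 and -0.06, and 0.18 on control chow.

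Circadian clock genes had 14 of 16 below 0, with a median of -0.16, and 8 were lower at an unadjusted p under 0.05, where 18.2% of all genes were. Cry2 and Per3, which belong to the repressor arm of the clock, lay at -0.26 (adjusted p = 0.0817) and -0.29, and its activator Arntl at -0.16. The clock output Dbp was at -0.08 and the repressor Bhlhe41 at 0.25. Glucocorticoid-responsive genes had 13 of 17 below 0 with a median of -0.12, with Zbtb16 at -0.34, Tsc22d3 at -0.31 and Fkbp5 at -0.26, each a target induced by the receptor, and none passed. The medians of the clock and glucocorticoid lists were -0.07 and -0.04 after quantile normalisation, and -0.11 and -0.03 without wild-type replicate 5 on ibuprofen. The time of day of sampling was not given in the labels, and its part was not tested.

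Apart from App, no gene nearest to the drug or to amyloid passed. Prostaglandin synthesis and receptor genes had 15 of 20 above 0, with a median of 0.06. The median was 0.03 without APP-PS1 replicate 4 or wild-type replicate 3 on ibuprofen and 0.09 without APP-PS1 replicate 2. Ptgs2, the inducible cyclooxygenase that ibuprofen inhibits, read 11.07, 10.93, 11.38, 11.19 and 11.23 in APP-PS1 mice on ibuprofen and 11.45, 11.11, 10.87, 10.95 and 11.21 in wild-type mice on ibuprofen. These groups overlapped over most of their range, with a difference of 0.04. Ptgs1 was not analysed here. The prostacyclin receptor Ptgir was at 0.20 and Slco2a1, which carries prostaglandins into cells, at -0.20. Of 24 genes of amyloid processing and clearance 19 lay below 0, with a median of -0.06 that was -0.00 without wild-type replicate 5 on ibuprofen. Bace1, the β-secretase, was at -0.18 (adjusted p = 0.142), with 11.17 to 11.47 in APP-PS1 mice and 11.43 to 11.70 in wild-type mice on ibuprofen. The γ-secretase subunits Ncstn and Psen2 lay at -0.06 and -0.11. Cholesterol synthesis and export genes had a median of 0.00 with 11 of 22 above 0, against 22 of 22 above 0 and a median of 0.21 on control chow.

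**Figure D4:**
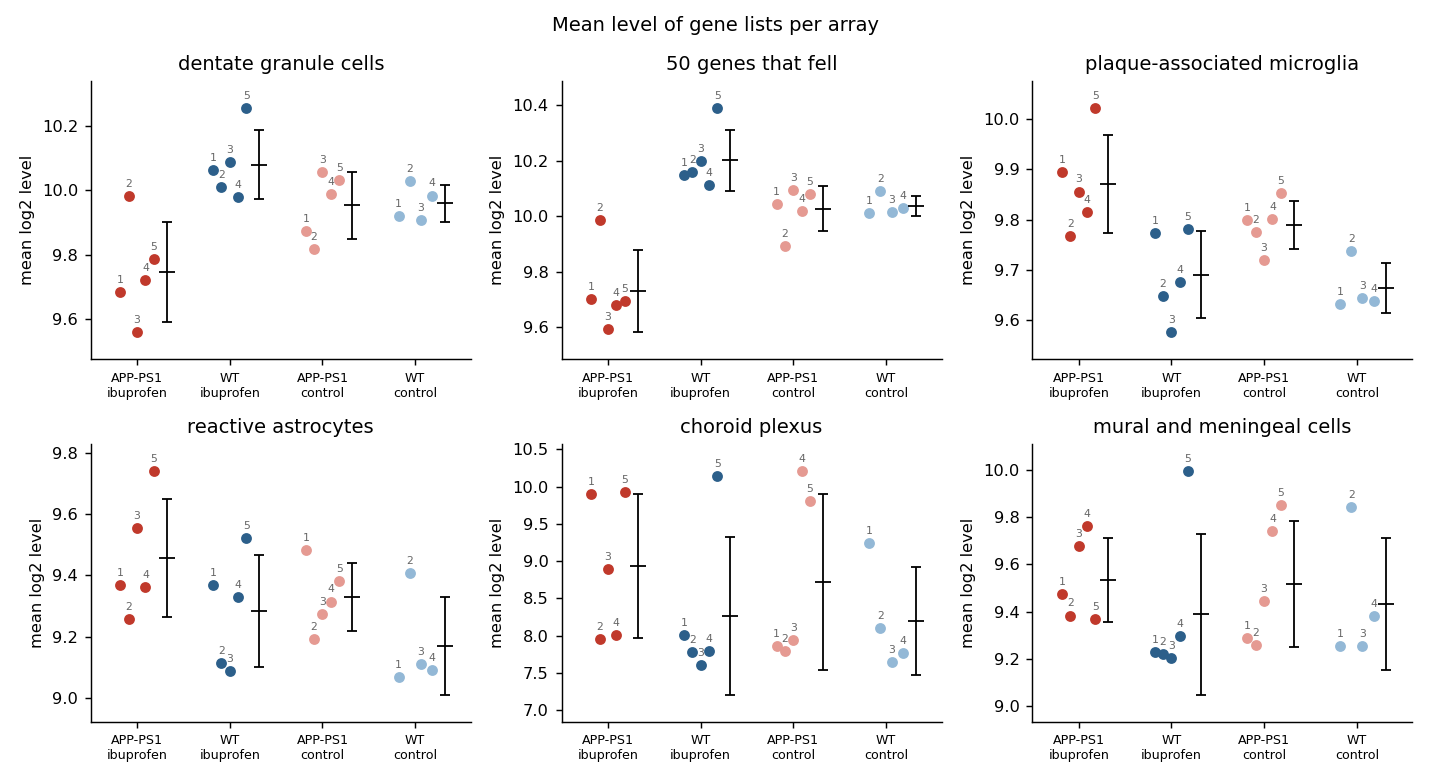
Mean log2 level of 5 gene lists and of the 50 genes that fell on each array (points, numbered by replicate), with the mean and SD of each group (bars), by genotype and chow. The dentate list is 9.75 in APP-PS1 mice and 10.08 in wild-type mice on ibuprofen. Replicate 5 of wild-type mice on ibuprofen is the highest of its group for all 5 lists and for the 50 genes.

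The count of genes that passed changed with single arrays. The mean of the 50 genes that fell was 9.70, 9.99, 9.59, 9.68 and 9.69 in replicates 1 to 5 of APP-PS1 mice on ibuprofen, against 10.15, 10.16, 10.20, 10.11 and 10.39 in wild-type mice on ibuprofen. Replicate 2 of the APP-PS1 mice was nearest to the wild-type arrays, and replicate 5 of the wild-type mice was the highest wild-type array for 40 of the 50 genes. Without wild-type replicate 4 on ibuprofen 1490 genes passed, and without APP-PS1 replicate 2 on ibuprofen 444 passed. Without APP-PS1 replicates 1, 3, 4 or 5 on ibuprofen, 33, 27, 10 and 30 genes passed. Without wild-type replicates 3 or 5 on ibuprofen it was 33 and 34, and without APP-PS1 replicate 1 on control chow it was 100. Of the 54 genes, 10 passed in all 19 of these fits: Prnp, App, Cst7 and Penk among the rises, and Dsp, Rtl3, Egfem1, Flt3, Dgkh and Jph1 among the falls. With the 10 ibuprofen arrays alone in the fit, 3 genes were higher and 2 lower. Without the 3 arrays low in Y-linked genes, a fit chosen after the data were seen, the 3 that passed were Prnp, App and Dsp. These 3 genes also passed in each of the other 13 alternative settings.

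**Figure D5:**
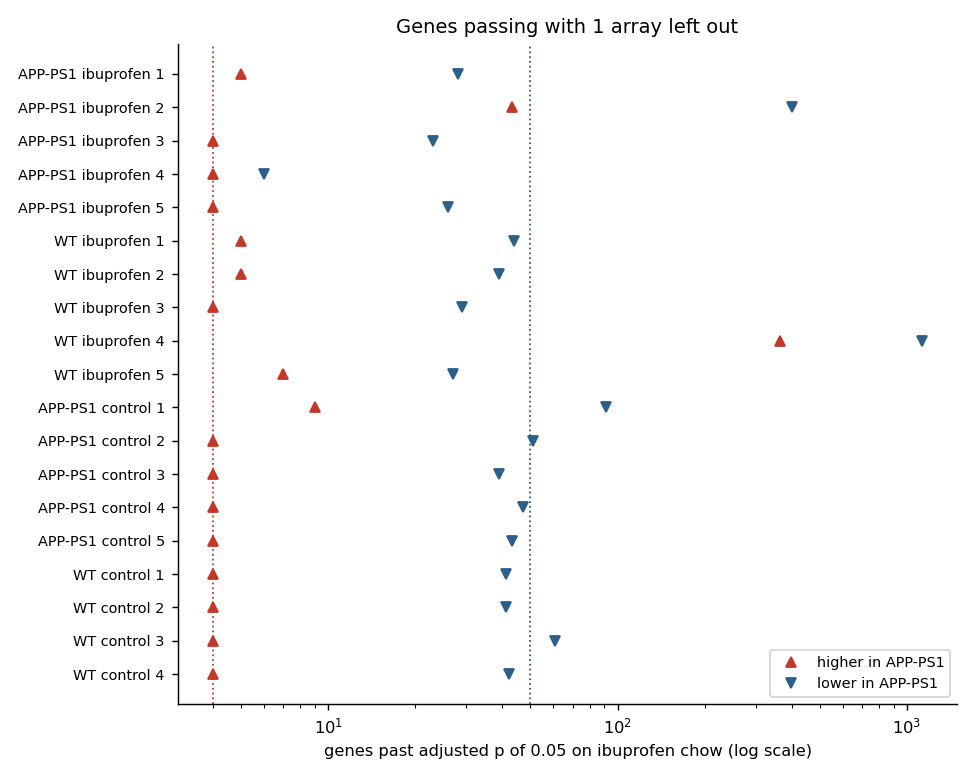
Number of genes past adjusted p 0.05 on ibuprofen chow (horizontal, log scale) with each of the 19 arrays left out in turn (vertical), higher in APP-PS1 mice in red and lower in blue, with the counts over all arrays, 4 and 50, as dotted lines. The count of lower genes runs between 6 without APP-PS1 ibuprofen replicate 4 and 1127 without wild-type ibuprofen replicate 4.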

How the data were processed

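The series matrix of log2 values was used as deposited. The authors made the values with RMA (background correction, quantile normalisation and summary of probes into probe sets) in Partek 6.5, per the submitters' processing notes, and no count or detection call was used here. Of 35556 probe sets, 21789 had 1 gene symbol, 1621 several and 12146 none in the annotation, and 21698 matched RefSeq (GRCm38.p6) by gene number. Each gene was read by its brightest probe set, judged by the mean level. limma 3.58.1 in R 4.3.3 fitted 4 group means to all 19 arrays with an intensity trend, and p-values were adjusted over all 19938 genes. The fit was tested on simulated data, and 14 alternative settings and 19 fits leaving out 1 array each were run. The genes named were App and Prnp, the 12 largest rises and falls that passed, filled by smallest p, members of each list that passed or had the smallest p, and the 6 smallest interaction p values. The members and the 31 lists (526 of 567 genes measured) were chosen with earlier results of these data known. The labels give no batch. No array pair of 171 held identical values, and the number of arrays limits the precision. Figures were drawn with matplotlib 3.10.9. One gene of the naming rule is not reported here.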

Additional observations from a re-analysis of the deposited data

Results flagged for a closer look

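In 134 groups of 5 arrays, 13 single arrays lay apart from the other 4 by Dixon's criterion, which chance meets in about 5% of groups. In APP-PS1 mice on ibuprofen, Dsp was 9.31 in replicate 2 (others 8.35 to 8.46), Dpep1 was 7.13 in the same array (others 7.47 to 7.57), and Frzb was 8.45 in replicate 3 (others 9.25 to 9.53). The mean of the sex-linked genes was 8.44 in replicate 1 of the same group (others 9.08 to 9.15). In wild-type mice on ibuprofen, Cst7 was 7.27 in replicate 4 (others 6.99 to 7.06). Replicate 5 of these wild-type mice stood apart in 8 of the 13 cases, on the high side except for B2m, which was 10.24 (others 11.88 to 12.24). Mkx was 9.49 there (others 9.02 to 9.15), Syt10 was 10.53 (others 10.06 to 10.14) and Bace1 was 11.70 (others 11.43 to 11.48). The means of 4 lists were also high in that array: amyloid processing and clearance at 11.06 (others 10.81 to 10.88), immediate early genes at 9.87 (others 9.54 to 9.61), choroid plexus at 10.15 (others 7.60 to 8.01), and mural and meningeal cells at 9.997 (others 9.20 to 9.30).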

How the results depend on the processing

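The count of 54 genes on ibuprofen chow was 128 without the genes under the 0.25 quantile of mean level and 91 with robust empirical Bayes. It was 1004 with array weights, 5 with the ibuprofen groups alone and 175 with Xist as a covariate. Without wild-type ibuprofen replicates 1 and 5 and APP-PS1 control replicate 1 it was 33. Without the 3 arrays low in Y-linked genes, a fit chosen after seeing the data, the count was 3. It was between 38 and 63 under the other 6 settings beside the replicate block, and between 10 and 1490 with 1 array left out. The interaction count of 0 was 174 with array weights, 0 in the other settings run, and 0 to 13 with 1 array left out. With the replicate number as a block 197 genes passed, including all 54. Whether the numbers pair the arrays was not tested. Deviations of ibuprofen arrays with the same number correlated at 0.20, -0.21, 0.01, 0.57 and 0.14. Arrays with different numbers were not compared. None of the 54 genes changed direction in any of these fits. The number of arrays limits the precision. The causes of these changes were not tested.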

Other observations

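Lists not described above had no member that passed on ibuprofen chow. Immediate early genes, which mark recent neuronal activity, had 17 of 24 below 0 with a median of -0.09, and on control chow 20 of 24 with a median of -0.10. The ibuprofen median was -0.02 without wild-type replicate 5 on ibuprofen. Nr4a3, an activity-induced nuclear receptor, was at -0.30 (adjusted p = 0.0907), while Fos was at 0.18 on ibuprofen chow and -0.26 on control chow, and Arc at 0.02 and -0.28. Adult neurogenesis genes had a median of 0.00 with 7 of 14 above 0, and Neurod1, a factor of newborn granule cells, was at -0.25 and Dcx, a cytoskeletal protein of young neurons, at -0.06. PPAR targets and fat oxidation genes had a median of -0.03 with 7 of 18 above 0, and heat shock and unfolded protein response genes a median of -0.02 with 8 of 23 above 0. Endothelial genes had a median of -0.01 on ibuprofen chow with 5 of 14 above 0, and 0.15 on control chow with 14 of 14 above 0.

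Markers of regions and cells outside the hippocampal neuron layers were mixed. Neocortex and subiculum genes had 11 of 16 above 0 with a median of 0.11 that was 0.0019 without APP-PS1 replicate 3 on ibuprofen and 0.05 without wild-type replicate 1, with Rprm at 0.57, Foxp2 at 0.31 and Lamp5 at -0.29. Thalamus and habenula genes had 8 of 12 below 0 with a median of -0.09, which was -0.03 without wild-type replicate 5 on ibuprofen. Mural and meningeal genes had 14 of 19 above 0 with a median of 0.07, which was 0.23 without wild-type replicate 5 and 0.0059 without APP-PS1 replicate 4 on ibuprofen, and the collagens Col3a1, Col1a1 and Col1a2 were each at 0.34. Blood and leukocyte genes had 10 of 14 above 0 with a median of 0.09, which was 0.05 without APP-PS1 replicate 4 and 0.06 without wild-type replicate 2 on ibuprofen. Of the 4 sex-linked genes, Kdm5d and Eif2s3y were at -0.18 and -0.13, and Uty and Xist at 0.01 and 0.04.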
